A study of Homo sapiens with 9 samples.

Results

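Transcripts of HEK293T cells that received an siRNA against SUDS3 were compared, gene by gene, with those of cells that received a control siRNA. The comparison takes the 3 SUDS3 siRNA and the 3 control siRNA libraries, 6 of the 9 in the series, and all genes of the count table, of which 18088 of 58735 had enough counts to be tested. HEK293T is a human embryonic kidney cell line with the SV40 large T antigen, grown here in DMEM with 10% serum. Cells were transfected through Lipofectamine RNAiMAX with 10 nM of a Silencer Select siRNA, either SUDS3 siRNA s34740 or Negative Control No. 2, and total RNA was taken with TRIzol after 36 h. The remaining 3 libraries, from cells given 10 nM of an siRNA against PHF12 for the same time, entered the estimate of spread and serve below as another knockdown. Each target has 1 siRNA, so loss of SUDS3 and other actions of that siRNA cannot be told apart. Nothing in the labels tells if the replicates came from separate cultures, and p-values therefore speak only of spread among these libraries, which may be technical.

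SUDS3, the mammalian relative of yeast Sds3, holds the histone deacetylases HDAC1 and HDAC2 on the scaffold SIN3A or SIN3B. SIN3 complexes are brought to promoters and gene bodies by DNA-binding proteins and chromatin readers, PHF12 among them, and remove acetyl groups from histone tails. A well known recruiter is REST, which keeps neuronal genes silent in cells that are not neurons. Removal of a repressor subunit can raise the genes it acts on directly and can raise or lower many more through the regulators among them.

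The control libraries held 37962926 to 46604093 counts and the SUDS3 siRNA libraries 40489654 to 47332744, and 4.98% to 5.60% of the counts in these 6 libraries were mitochondrial. SUDS3 itself lay at 107, 114 and 112 CPM in the controls and 21.1, 22.3 and 22.9 CPM after knockdown (log2 fold change -2.33, SE 0.05, adjusted p = 1.82e-28 by the quasi-likelihood F-test of edgeR, as for every adjusted p below), where CPM are counts per 1000000 in a library after TMM scaling. The PHF12 siRNA libraries also held less SUDS3 than the controls, at 81.4, 80.1 and 81.5 CPM (log2 fold change -0.46, adjusted p = 6.83e-10). PHF12 had means of 49.9 CPM in the controls and 26.9 CPM with its own siRNA. With the SUDS3 siRNA PHF12 rose to 61.5 CPM (log2 fold change 0.30, adjusted p = 7.19e-05). Contrasts with the PHF12 siRNA below are thus not made against unchanged SUDS3. Markers of the line were all detected, in counts scaled for transcript length and to 1000000 per library. The 10 genes of embryonic kidney, neurofilaments, keratins and vimentin summed to 1095 to 1116 in the controls and 1033 to 1048 with the SUDS3 siRNA. Vimentin, VIM, alone held 636 to 651 of this in the controls and 529 to 537 with the SUDS3 siRNA. PAX2 was low, at 0.585 to 1.45 in the controls. VIM (-0.32), SALL2 (-0.35), EYA1 (-0.45) and KRT8 (-0.61) fell on the log2 scale, NEFM rose (0.40), and the others did not pass. Of 7 fibroblast markers, summed at 5.84 to 6.50 and at 10.3 to 11.2 on that scale, COL1A1 rose. LUM went from 0.220 to 0.306 in the controls to 0.637 to 0.769 and COL3A1 from 1.03 to 1.15 to 1.35 to 1.70, both without overlap, and neither passed. PDGFRA did not pass, and COL1A2, DCN and PDGFRB, at 0.126 or less in every library, were too low to test. The part of these genes in the results was not tested. PTPRC, CD3E and HBB, of blood cells, were at 0 in all 6. In these bulk libraries fewer cells of a type and less RNA per cell cannot be told apart.

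The SUDS3 siRNA moved transcripts both ways in near equal numbers. An adjusted p under 0.05 was reached by 3537 genes that rose (19.6% of those tested) and 3467 that fell (19.2%), and 11084 did not pass. Changes of at least 2-fold were fewer and lay mostly downward, with 95 rises (0.525%) and 379 falls (2.1%). The median log2 fold change over all genes was -0.02. Among the 13868 protein-coding genes, 3425 (24.7%) rose and 3177 (22.9%) fell, with a median of -0.01, and these shares are the background for the gene groups below. That background is not matched for level. In the lowest quartile of mean level 4.87% of protein-coding genes rose and 14.4% fell, with a median of -0.23. In the third quartile 36.0% rose and 22.5% fell, with a median of 0.06. To describe what kinds of genes moved, 68 lists of genes with a known common role were read, in 12 themes. They hold 2262 genes, of which 2111 were tested, and 550 of these rose and 619 fell. Some counts are repeated for genes whose 3′ UTR lacks the hexamer TACATT, which an earlier scan of these fold changes had tied to falls. Where libraries are said not to overlap, the background is that 23.2% of all genes had the 3 SUDS3 siRNA libraries above the 3 controls and 23.4% had them below. Of the 325 genes chosen for naming, 113 overlap another tested gene across the strands, 42 share a strand with such a gene and 68 have a pseudogene of the same name, and reads of these partners may be among their counts. Coordinates of genes are those of GENCODE 29 on GRCh38.

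**Figure D1:**
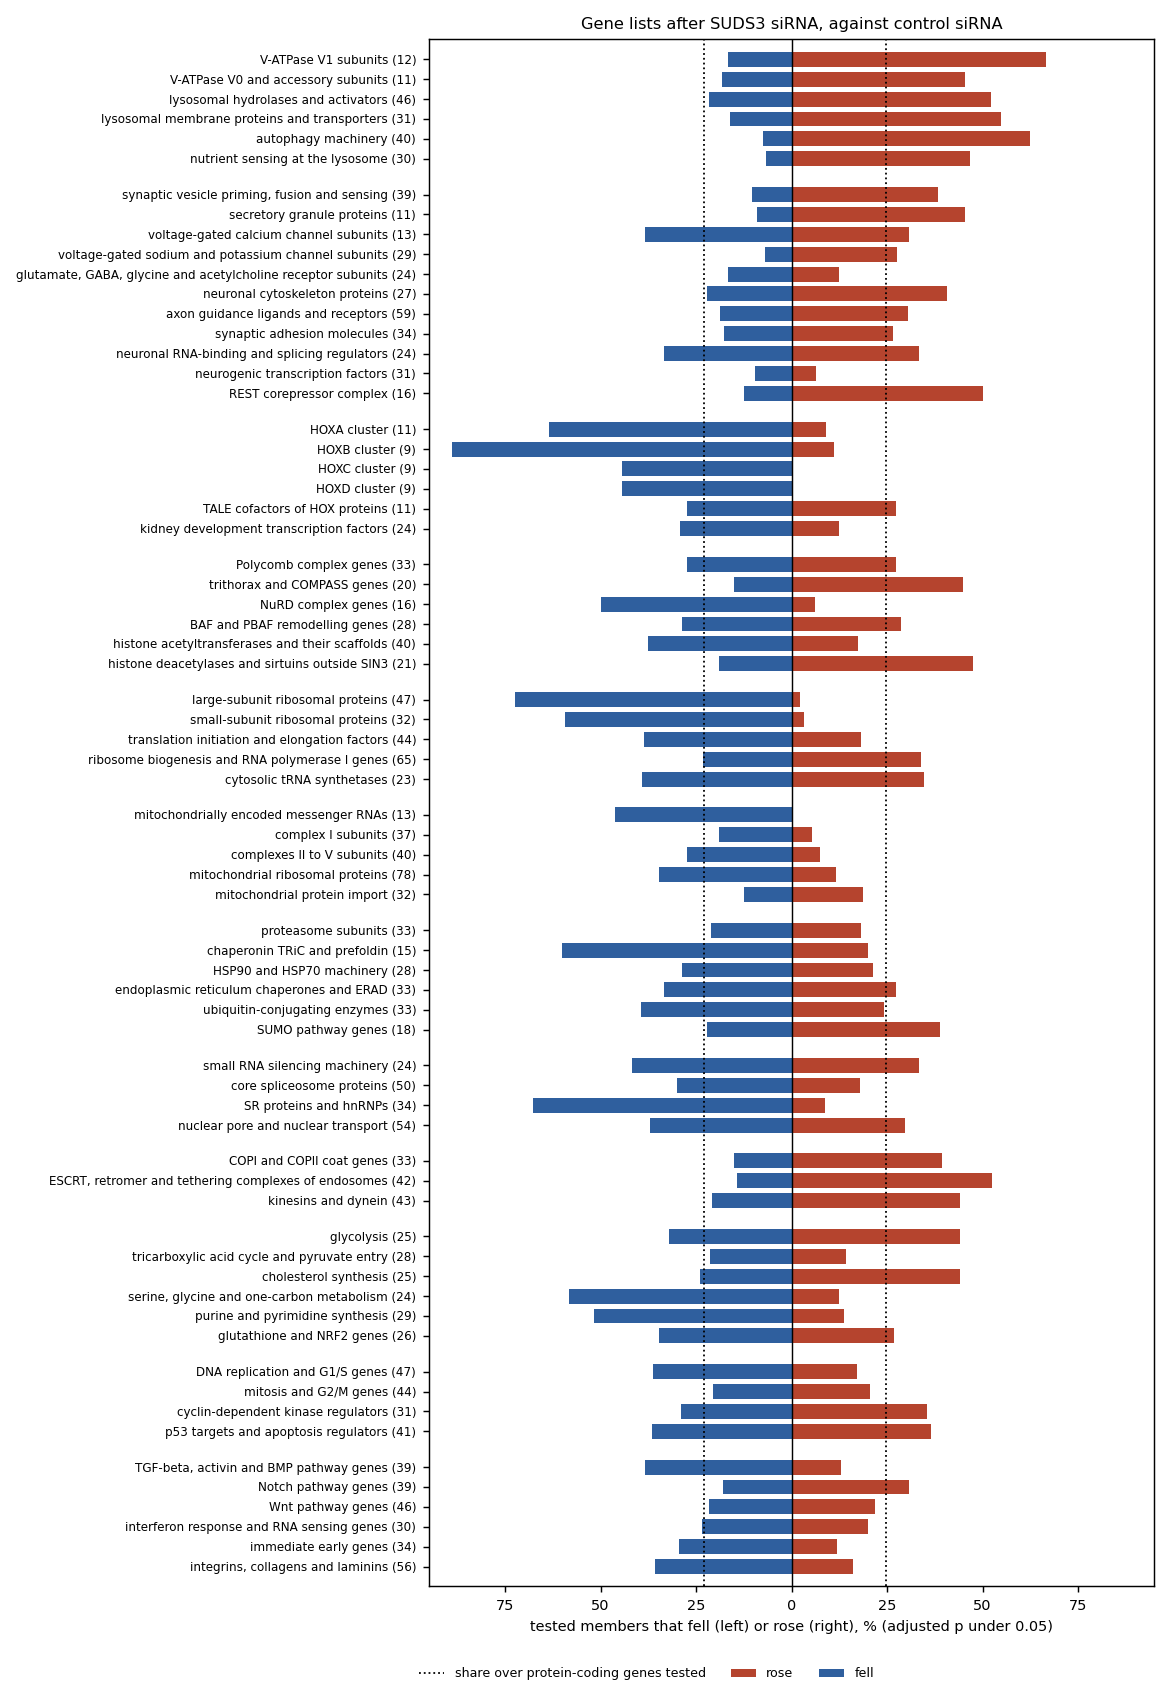
Share of the tested members of each of 68 gene lists that fell (blue, left) or rose (red, right) with the SUDS3 siRNA against the control siRNA, in percent, with the number of tested members in parentheses; dotted lines give the shares over all protein-coding genes, 22.9% fallen and 24.7% risen. Bars reach farthest to the right for lists of the V-ATPase, autophagy and lysosomal membrane, and farthest to the left for the HOXB and HOXA clusters, large-subunit ribosomal proteins and RNA-binding SR proteins and hnRNPs.

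Genes of the lysosome and of autophagy were mostly higher. Lysosomes are acidic organelles that digest material delivered by endocytosis and autophagy, and the kinase complex mTORC1 senses amino acids on their surface. Over 6 lists with 170 tested genes, 93 rose, 24 fell and 53 did not pass, with a median log2 fold change of 0.19. The lysosomal membrane list was higher in every SUDS3 siRNA library: its median log2 level, set against the mean of the controls, was 0.20, 0.19 and 0.17, against 0.04, -0.01 and -0.04 in the controls. The corresponding medians of the autophagy list were 0.23, 0.25 and 0.24 with the SUDS3 siRNA.

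Many promoters of lysosomal genes carry the letters TCACGTGA, an extended E-box known as a site of the transcription factors TFEB and TFE3, so the promoters of these genes were read. The promoter windows come from RefSeq (GRCh38.p14) and span 250 bases before to 50 after the annotated start. CACGTG and TCACGTGA read the same on both strands, and the first lies within the second. Of the 27305 promoters in that table, 7.43% held CACGTG and 1.04% held TCACGTGA. A promoter was found for 10911 of the protein-coding genes tested and for 135 of the 170 lysosome genes. Among the latter, 16 (11.9%) held TCACGTGA, against 1.86% of the former. It stood in 11 of the 72 lysosome genes with a promoter that rose, 1 of the 20 that fell and 4 of the 43 that did not pass. The 119 lysosome genes with a promoter that lacked TCACGTGA leaned up as well: 61 rose (51.3%) and 19 fell, with a median of 0.17. The stretches before the start of 4 risen genes are shown because they carry the match, with CACGTG or TCACGTGA in capitals, on the strand of the gene. They are chr20:45891229-45891334 (plus strand) for CTSA, chr16:67481158-67481297 (minus strand) for ATP6V0D1, chr6:159968869-159969036 (plus strand) for IGF2R and chr16:2047790-2047957 (plus strand) for TSC2.
CTSA: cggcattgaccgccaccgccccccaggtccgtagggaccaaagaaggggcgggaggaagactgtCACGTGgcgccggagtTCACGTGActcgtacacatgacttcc
ATP6V0D1: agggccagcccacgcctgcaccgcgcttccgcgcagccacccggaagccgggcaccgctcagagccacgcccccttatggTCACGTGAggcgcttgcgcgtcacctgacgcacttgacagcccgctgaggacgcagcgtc
IGF2R: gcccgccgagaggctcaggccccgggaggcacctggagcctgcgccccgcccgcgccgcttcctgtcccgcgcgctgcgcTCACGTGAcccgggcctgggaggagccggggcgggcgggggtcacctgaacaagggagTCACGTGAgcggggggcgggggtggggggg
TSC2: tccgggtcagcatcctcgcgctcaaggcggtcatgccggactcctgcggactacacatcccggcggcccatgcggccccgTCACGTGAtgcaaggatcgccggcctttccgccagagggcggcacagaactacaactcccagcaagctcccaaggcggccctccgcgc

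Over all protein-coding genes with a promoter, 36.0% of the 203 with TCACGTGA rose and 17.7% fell, against 25.3% and 23.1% of the 10708 without it, with medians of 0.09 and -0.00. A match is a run of letters and does not show that a factor was bound. Lists of the same theme differed in it. It stood in 6 of 27 promoters of lysosomal membrane genes and 5 of 31 of hydrolase genes, but in 1 of 35 of the autophagy machinery, which also rose.

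The V-ATPase is the proton pump that acidifies lysosomes, built of a V1 part that splits ATP and a membrane V0 part that carries protons. Of 12 V1 genes tested, 8 rose, 2 fell and 2 did not pass, and of 11 V0 and accessory genes 5 rose, 2 fell and 4 did not pass. ATP6V1D lay at 70.4, 66.4 and 64.8 CPM in the controls and 90.99, 93.01 and 94.6 CPM after knockdown (log2 fold change 0.47, SE 0.05, adjusted p = 1.75e-10). Every SUDS3 siRNA library was above every control. ATP6V0D1, which links the V0 part to the stalk of the pump, lay at 94.2, 88.7 and 84.6 CPM in the controls and 122, 123 and 119 CPM after knockdown (log2 fold change 0.44, SE 0.04, adjusted p = 2.08e-10), again without overlap. Other V1 rises were ATP6V1C1 (0.46), ATP6V1H (0.36), ATP6V1A (0.29), ATP6V1B2 (0.29) and ATP6V1E1 (0.27) on the log2 scale. The ATP6V1G1 subunit fell by 0.22 and TCIRG1, the V0 subunit of bone-resorbing cells, which overlaps a gene on its own strand, fell by 0.72. ATP6V0E1 and ATP6V0B of the V0 list rose by 0.40 and 0.15. Several small calls of the pump lists ended in other fits. The rise of ATP6V1F (0.13) was lost without SUDS3 siRNA replicate 1 (adjusted p = 0.074), that of ATP6V0A1 (0.16) without control replicate 3 (0.0653), that of ATP6AP2 (0.13) without control replicate 1 or 2 or SUDS3 siRNA replicate 1 (up to 0.0881) and under upper-quartile scaling (0.055), and that of ATP6V1G2 (0.66) without replicate 2 or 3 of either group (up to 0.104) and with no low-count filter (0.0609). The fall of ATP6V1C2 (-0.95) was lost without control replicate 2 or SUDS3 siRNA replicate 3 (up to 0.0617) and that of ATP6V0E2 (-0.16) without control replicate 1 or SUDS3 siRNA replicate 3 (up to 0.19). Limma on log2(TPM + 1) did not call ATP6V0A1 (adjusted p = 0.0503) or ATP6V0E2 (0.158).

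Among 46 lysosomal hydrolases and their activators, 24 rose, 10 fell and 12 did not pass (median 0.15). Cathepsin A, CTSA (ENSG00000064601, chromosome 20, 45890144 to 45898820), a peptidase that also protects neuraminidase, lay at 73.3, 69.3 and 65.3 CPM in the controls and 109, 109 and 105 CPM after knockdown (log2 fold change 0.64, SE 0.05, adjusted p = 1.63e-13). The groups did not overlap. TPP1, a peptidase, rose by 0.42 on the log2 scale. GLA, the galactosidase that is deficient in Fabry disease, went the other way, at 253, 252 and 257 CPM in the controls and 181, 178 and 191 CPM after knockdown (log2 fold change -0.47, SE 0.03, adjusted p = 3.25e-14).

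Lysosomal membrane proteins and transporters rose in 17 of 31 cases, 5 fell and 9 did not pass (median 0.21). CTNS, which exports cystine from the lysosome, lay at 34.6, 31.5 and 39.7 CPM in the controls and 51.1, 54.6 and 53.8 CPM after knockdown (log2 fold change 0.59, SE 0.07, adjusted p = 5.24e-09). SIDT2 rose by 0.73 and IGF2R, the receptor that sorts hydrolases by mannose 6-phosphate, by 0.33 on the log2 scale. Of the 16 tested members without the hexamer, 11 rose, with a median of 0.31, and the 5 falls of the list were all among members that hold it.

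Autophagy encloses cytoplasm in a closed membrane and delivers it to the lysosome. Of 40 genes of its machinery, 25 rose, 3 fell and 12 did not pass (median 0.24). The receptors that link cargo to the forming membrane were among the rises. CALCOCO2 (ENSG00000136436, chromosome 17, 48830988 to 48866522) lay at 103, 111 and 105 CPM in the controls and 149.5, 139 and 159 CPM after knockdown (log2 fold change 0.49, SE 0.05, adjusted p = 1.99e-10), and OPTN rose by 0.54. The lipid transfer protein ATG2A rose by 0.65. The kinase gene ULK2 fell and lay at 18.7, 20.2 and 23.3 CPM in the controls and 12.1, 12.6 and 12.9 CPM after knockdown (log2 fold change -0.73, SE 0.09, adjusted p = 5.01e-08). For both CALCOCO2 and ULK2 the groups did not overlap, in opposite directions.

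Nutrient sensing genes at the lysosome gave 14 rises, 2 falls and 14 that did not pass, of 30. RRAGD, a GTPase that carries mTORC1 to the lysosome, lay at 34.1, 40.7 and 43.1 CPM in the controls and 64.5, 66.7 and 65.3 CPM after knockdown (log2 fold change 0.74, SE 0.06, adjusted p = 1.45e-11). The leucine sensor SESN2 rose by 0.32 and TSC2, a brake on mTORC1, by 0.33. MLST8, a core subunit of both mTOR complexes, fell and lay at 91.1, 85.5 and 86.1 CPM in the controls and 58.7, 60.7 and 54.4 CPM after knockdown (log2 fold change -0.59, SE 0.05, adjusted p = 2.45e-11).

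Genes of membrane traffic also leaned up. Of 118 tested, 54 rose, 20 fell and 44 did not pass (median 0.09). The rises were densest among the ESCRT, retromer and tethering complexes of endosomes, which sort cargo between endosome, lysosome and Golgi: 22 of 42 rose, 6 fell and 14 did not pass (median 0.17). VPS26B, a retromer subunit, lay at 50.8, 51.3 and 51.8 CPM in the controls and 84.2, 87.9 and 83.8 CPM after knockdown (log2 fold change 0.73, SE 0.05, adjusted p = 1.66e-13). The paralogue VPS26A rose by 0.53; both have pseudogenes. CHMP1A, of the ESCRT-III filament, rose by 0.41, and VPS36, of ESCRT-II, fell by 0.29. Kinesins and dynein, the motors of microtubules, rose in 19 of 43 cases and fell in 9. Among members that overlap no other tested gene the order of these 2 lists was reversed. There 16 of 31 motor genes rose and 6 fell (median 0.13), and 11 of 24 genes of the endosome complexes rose and 3 fell (median 0.07). KIF3B lay at 63.6, 63.6 and 63.8 CPM in the controls and 107, 106 and 105 CPM after knockdown (log2 fold change 0.74, SE 0.04, adjusted p = 5.68e-16), and KIF1C (0.65) and DYNC1H1 (0.35) rose as well, while KIF1A, the motor of synaptic vesicle precursors, fell by 0.37. Of 33 genes of the COPI and COPII coats between endoplasmic reticulum and Golgi, 13 rose, among them SEC31A (0.36) and SEC24C (0.31), and 5 fell, among them TMED2 (-0.41).

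**Figure D2:**
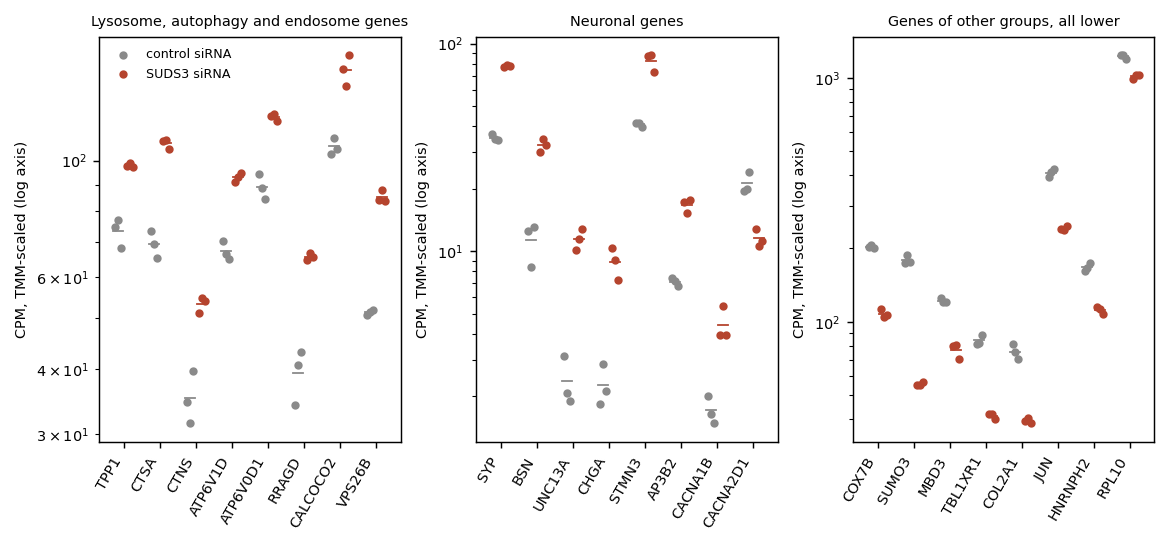
Level of named genes in each library, in CPM with TMM scaling on a log axis, for the 3 control siRNA libraries (grey) and the 3 SUDS3 siRNA libraries (red), with a bar at the group mean. The left panel holds genes of lysosome, autophagy and endosome, all higher with the SUDS3 siRNA; the middle panel holds neuronal genes, of which CACNA2D1 is the lower one; the right panel holds lower genes of other groups.

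Neuronal genes held many of the largest rises. Across 10 lists of neuronal character and the REST corepressor complex, 307 genes were tested: 91 rose (29.6%), 52 fell (16.9%) and 164 did not pass, with a median of 0.08. The share that did not pass was near that of all protein-coding genes, 7266 of 13868. The 307 genes include 14 of the 66 protein-coding genes that rose at least 2-fold and 9 of the 283 that fell as far. These lists were drawn up knowing that neuronal genes lead the rises, so the first count is not independent evidence. The members below are set out by the part of the neuron they serve.

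Genes of the presynaptic machinery were among the rises. Of 39 genes of vesicle priming, fusion and calcium sensing, 15 rose, 4 fell and 20 did not pass (median 0.21). Synaptophysin, SYP (ENSG00000102003, chromosome X, 49187804 to 49200259), a membrane protein of synaptic vesicles, lay at 36.5, 34.5 and 34.4 CPM in the controls and 76.9, 79.00 and 77.9 CPM after knockdown (log2 fold change 1.15, SE 0.06, adjusted p = 3.35e-18). The active zone scaffold BSN lay at 12.5, 8.39 and 13.1 CPM in the controls and 29.99, 34.9 and 32.4 CPM after knockdown (log2 fold change 1.52, SE 0.11, adjusted p = 1.41e-13). The priming factor UNC13A was lower in level, at 3.11, 2.08 and 1.90 CPM in the controls and 10.2, 11.4 and 12.8 CPM after knockdown (log2 fold change 2.28, SE 0.19, adjusted p = 4.63e-12). For all 3 the groups were apart by more than the spread within either. RIMS4, a small relative of the RIM scaffolds, fell and lay at 45.9, 47.1 and 47.3 CPM in the controls and 30.5, 29.7 and 30.2 CPM after knockdown (log2 fold change -0.63, SE 0.06, adjusted p = 5.65e-11).

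Dense-core granules store peptides and hormones for release. The list read for them has 11 tested genes, of which 5 rose, 1 fell and 5 did not pass (median 0.34). One of the rises, SECISBP2L, is an RNA-binding protein and no granule protein, and among the other 10 genes 4 rose and 1 fell (median 0.21). CHGA, the granule protein chromogranin A, lay at 1.83, 2.85 and 2.11 CPM in the controls and 10.4, 9.09 and 7.26 CPM after knockdown (log2 fold change 1.97, SE 0.20, adjusted p = 7.56e-10). The granule protein SCG3 rose from a low level, at 1.01, 0.951 and 1.48 CPM in the controls and 5.23, 2.50 and 3.73 CPM after knockdown (log2 fold change 1.74, SE 0.31, adjusted p = 1.79e-05). CPE, which trims peptide hormones, fell and lay at 58.9, 66.2 and 62.7 CPM in the controls and 47.7, 46.5 and 45.2 CPM after knockdown (log2 fold change -0.43, SE 0.06, adjusted p = 7.11e-08).

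Ion channel genes moved both ways. Voltage-gated calcium channel subunits gave 4 rises, 5 falls and 4 that did not pass, of 13 (median -0.13, and 0.18 over the members without the hexamer). CACNA1B, the pore of N-type channels, lay at 2.01, 1.64 and 1.48 CPM in the controls and 3.94, 5.42 and 3.92 CPM after knockdown (log2 fold change 1.37, SE 0.23, adjusted p = 9.58e-06). CACNA2D1, an auxiliary subunit, moved the other way, at 19.6, 19.98 and 24.1 CPM in the controls and 12.7, 10.6 and 11.2 CPM after knockdown (log2 fold change -0.88, SE 0.09, adjusted p = 1.71e-09), and CACNB4 fell by 0.41. Of 29 sodium and potassium channel subunits, 8 rose, 2 fell and 19 did not pass, with a median of 0.24. That median was carried by 2 libraries: relative to the controls it was 0.30, 0.30 and 0.02. SCN9A rose by 0.76, and KCNQ5, with means of 13.3 CPM in the controls and 7.04 CPM after knockdown, fell (log2 fold change -0.91, SE 0.11, adjusted p = 3.83e-08). Receptor subunits for glutamate, GABA, glycine and acetylcholine mostly did not pass, with 3 rises and 4 falls of 24. The GABA receptor subunit GABRD, with means of 2.52 CPM in the controls and 4.76 CPM after knockdown, rose (log2 fold change 0.92, SE 0.21, adjusted p = 0.000501).

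Proteins of the neuronal cytoskeleton rose in 11 of 27 cases, with 6 falls (median 0.23). STMN3 (ENSG00000197457, chromosome 20, 63639705 to 63657682), a stathmin that regulates microtubules, lay at 41.5, 41.5 and 39.8 CPM in the controls and 87.5, 87.8 and 72.7 CPM after knockdown (log2 fold change 1.01, SE 0.06, adjusted p = 1.79e-15), and STMN1 rose by 0.36 and NEFM by 0.40. MAP1B fell and lay at 92.9, 92.6 and 93.5 CPM in the controls and 78.1, 70.2 and 69.9 CPM after knockdown (log2 fold change -0.35, SE 0.05, adjusted p = 2.01e-07). Axon guidance genes stood near the background, with 18 rises and 11 falls of 59 (median 0.04), and so did synaptic adhesion genes, with 9 rises and 6 falls of 34 (median -0.00). SEMA4G (0.83) and PLXNB2 (0.44), of the semaphorin pathway, rose, and SLIT2 fell by 0.19.

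Regulators of the neuronal state were divided. Neuronal RNA-binding and splicing regulators gave 8 rises, 8 falls and 8 that did not pass. SRRM3, which promotes inclusion of neuronal microexons, lay at 3.11, 3.89 and 3.70 CPM in the controls and 6.15, 7.42 and 8.34 CPM after knockdown (log2 fold change 1.03, SE 0.17, adjusted p = 4.61e-06). MSI2 rose by 0.42 and MBNL1 fell by 0.98. ELAVL2, a neuronal RNA-binding protein, was among the larger falls, at 21.1, 22.1 and 22.9 CPM in the controls and 7.98, 6.17 and 8.43 CPM after knockdown (log2 fold change -1.55, SE 0.11, adjusted p = 1.28e-13). Neurogenic transcription factors mostly did not pass: 26 of 31, with 2 rises and 3 falls (median -0.02). INSM1 lay at 5.94, 6.66 and 6.02 CPM in the controls and 3.49, 2.92 and 2.65 CPM after knockdown (log2 fold change -1.04, SE 0.17, adjusted p = 4.76e-06). EBF3 fell as well (-0.36). The fall of LHX2 (-0.57) was lost without control replicate 2 or any SUDS3 siRNA replicate (adjusted p up to 0.22), and the rise of ISL1 (0.23) without control replicate 2 or 3 or SUDS3 siRNA replicate 1 or 3 (up to 0.174) and under upper-quartile scaling (0.0558).

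The REST corepressor complex gave 8 rises, 2 falls and 6 that did not pass, of 16 (median 0.12). REST lay at 50.4, 46.7 and 51.3 CPM in the controls and 34.9, 34.95 and 36.4 CPM after knockdown (log2 fold change -0.48, SE 0.06, adjusted p = 2.67e-08), fully below the controls. KDM1A, the histone demethylase of the complex, rose by 0.25, HMG20B by 0.35 and CTDSP2, a phosphatase found with REST, by 0.38. Whether the lower REST transcript bears on the neuronal rises was not tested.

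The neuronal genes were set against the PHF12 knockdown directly, which uses no control library. Over all genes, 22.7% were higher and 21.1% lower with the SUDS3 siRNA than with the PHF12 siRNA. Of the 307 neuronal and REST complex genes, 102 were higher and 64 lower. SYP was at 19.9, 19.1 and 20.6 CPM in the PHF12 siRNA libraries, a log2 difference of 1.97 (adjusted p = 5.36e-25), and AP3B2, the neuronal subunit of an endosomal adaptor, was at 4.66, 3.08 and 3.61 CPM there, against 17.2, 15.3 and 17.6 CPM with the SUDS3 siRNA (log2 difference 2.14, adjusted p = 6.41e-16). For both genes all 3 control libraries lay between the groups. ACTL6B, the neuron-specific actin-like subunit of the BAF remodelling complex, was at 0.366, 0.173 and 0.845 CPM in the controls and 2.38, 2.25 and 2.65 CPM after knockdown (log2 fold change 2.42, SE 0.51, adjusted p = 0.000231) and at 0, 0.0791 and 0.370 CPM with the PHF12 siRNA (log2 difference 4.05, adjusted p = 3.63e-07).

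Among 73 transcription factors that pattern the embryo, 33 fell and 8 rose (median -0.19), and HOX genes made up most of the falls. HOX genes sit in 4 clusters and give cells their position along the body axis, and the kidney line expresses many of them. In the HOXB cluster 8 of 9 tested genes fell and 1 rose (median -0.55), in HOXA 7 of 11 fell and 1 rose (-0.30), and in HOXC and HOXD 4 of 9 each fell and the rest did not pass. The HOXB median was -0.51, -0.48 and -0.48 in the 3 SUDS3 siRNA libraries relative to the controls, which lay at 0.01, 0.02 and 0.01. HOXB2 (ENSG00000173917, chromosome 17, 48540894 to 48544989) lay at 22.4, 24.5 and 23.3 CPM in the controls and 9.91, 12.3 and 13.2 CPM after knockdown (log2 fold change -0.99, SE 0.09, adjusted p = 4.28e-11). The falls were not graded simply along a cluster: HOXB2 and HOXB4 fell by 0.99 and 1.03, HOXB3 between them by 0.46, and HOXB9 by 0.34.

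In the HOXA cluster, HOXA3 lay at 28.9, 30.2 and 33.6 CPM in the controls and 17.2, 19.5 and 16.7 CPM after knockdown (log2 fold change -0.79, SE 0.08, adjusted p = 3.43e-10), and HOXA2 (-0.77), HOXA4 (-0.85), HOXA5 (-0.42) and HOXA10 (-0.62) fell with it. HOXA7, inside the same cluster, rose and lay at 10.1, 12.1 and 8.97 CPM in the controls and 13.3, 17.1 and 12.8 CPM after knockdown (log2 fold change 0.47, SE 0.11, adjusted p = 0.000783). Of the other clusters, HOXC4 (-0.69), HOXC6 (-0.64), HOXC10 (-0.50), HOXC11 (-0.34), HOXD9 (-0.53) and HOXD10 (-0.45) fell. HOX genes overlap each other and antisense transcripts, so their counts can include reads of neighbours. Only 1 tested gene each of HOXA, HOXB and HOXC and 2 of HOXD overlap no other tested gene. Of these, the HOXA gene fell (-0.77) and the HOXB gene rose (0.26). The HOXC gene (-0.44) and the HOXD genes (median 0.11) did not pass. All falls in HOXB, HOXC and HOXD are thus of genes that overlap another. Of the weaker calls, the rise of HOXB13 (0.26) was lost without control replicate 3 or SUDS3 siRNA replicate 1 (adjusted p up to 0.198), and the fall of HOXA6 (-0.30) without control replicate 3 or SUDS3 siRNA replicate 1 or 3 (up to 0.136). The fall of HOXA13 (-0.16) was lost without control replicate 1 or 2 or SUDS3 siRNA replicate 2 or 3 (up to 0.239), that of HOXD11 (-0.37) without control replicate 2 or 3 (up to 0.0859) and that of HOXD8 (-0.29) when any of the 6 libraries was left out (up to 0.185). The HOXD8 call was also lost under RLE scaling (0.0564), with DESeq2 (0.0521), with no low-count filter (0.0889), with counts divided by 4 (0.0502), in the 6 libraries alone (0.06) and with limma (0.0615). Limma did not call HOXA6 (0.1), HOXA13 (0.079) or HOXD11 (0.0589) either.

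**Figure D3:**
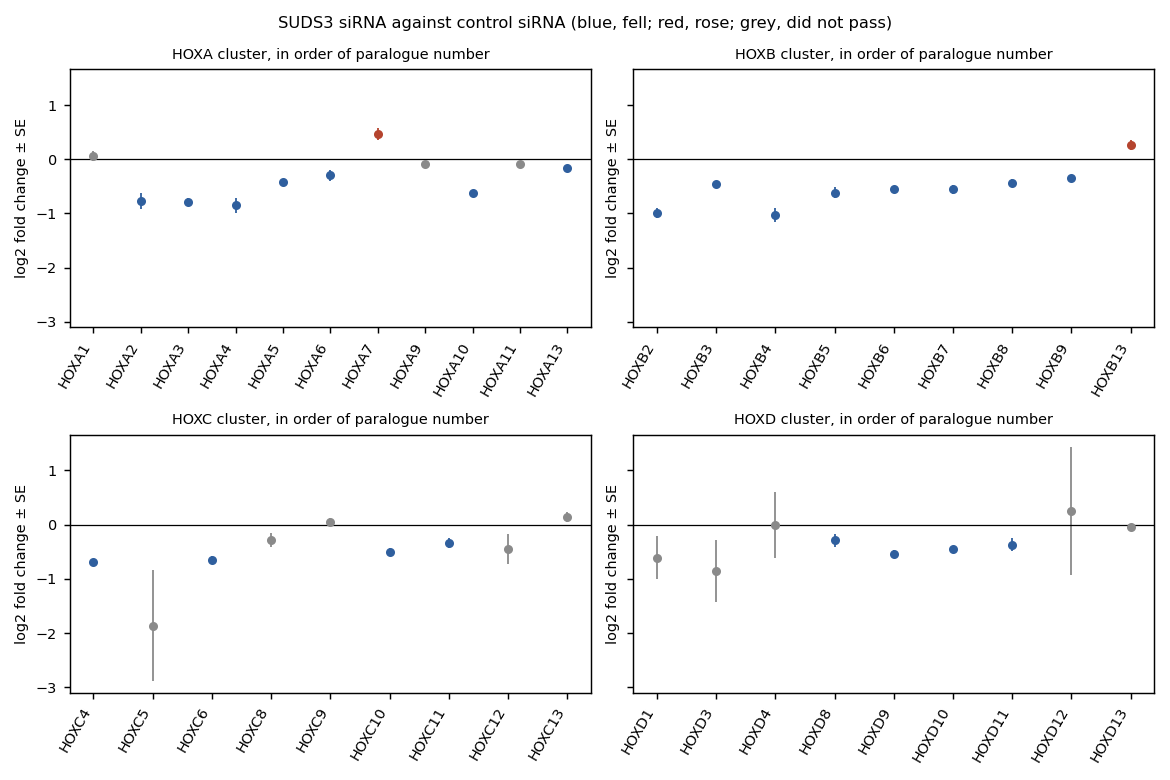
Log2 fold change of every tested HOX gene, SUDS3 siRNA against control siRNA, with its SE, in order of paralogue number within each cluster (blue, fell; red, rose; grey, did not pass). Most genes of the HOXB cluster lie below 0, HOXA7 and HOXB13 lie above it, and the points with long bars in HOXC and HOXD are genes of very low level.

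The cofactors and tissue regulators beside the HOX genes moved less. TALE proteins, which bind DNA together with HOX proteins, gave 3 rises, 3 falls and 5 that did not pass, with MEIS3 up by 0.55 and PKNOX1 down at a log2 fold change of -0.47. Of 24 transcription factors of kidney development, 7 fell and 3 rose. EYA1, a coactivator of the early kidney, lay at 23.2, 23.6 and 20.7 CPM in the controls and 15.8, 16.4 and 17.5 CPM after knockdown (log2 fold change -0.45, SE 0.08, adjusted p = 1.83e-05), and EYA3 of the same family lay at 84.4, 88.6 and 82.5 CPM in the controls and 122, 125 and 128 CPM after knockdown (log2 fold change 0.56, SE 0.05, adjusted p = 1.83e-12). Against the PHF12 siRNA, 41 of the 73 patterning genes were lower with the SUDS3 siRNA and 8 higher. The median log2 difference was -0.42, against -0.19 from the control siRNA. This contrast includes changes with the PHF12 siRNA itself, which for example raised HOXA10 (0.47), HOXA5 (0.53) and HOXA3 (0.57) over the controls. HOXA7 rose with both siRNAs, more with that against PHF12 (0.89), and so counts as lower here.

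Chromatin complexes other than SIN3 were tested as 6 lists with 158 genes: 44 rose, 47 fell and 67 did not pass (median 0.01). The lists differed in direction. NuRD, which shares HDAC1 and HDAC2 with SIN3 and adds a nucleosome remodeller, had 8 falls of 16 and 1 rise (median -0.17). MBD3 (ENSG00000071655, chromosome 19, 1573596 to 1592801), the subunit that defines one form of NuRD, lay at 125, 120.1 and 121 CPM in the controls and 79.5, 80.6 and 70.4 CPM after knockdown (log2 fold change -0.67, SE 0.05, adjusted p = 4.44e-14). CHD3 fell by 0.35 and GATAD2B by 0.32. In contrast, 10 of 21 deacetylases and corepressors outside SIN3 rose and 4 fell (median 0.11). HDAC11 lay at 7.77, 8.99 and 7.60 CPM in the controls and 12.5, 15.1 and 13.6 CPM after knockdown (log2 fold change 0.76, SE 0.13, adjusted p = 6.58e-06), TBL1X rose by 0.44, and its close relative TBL1XR1 fell and lay at 81.5, 81.99 and 88.8 CPM in the controls and 41.8, 41.96 and 40.01 CPM after knockdown (log2 fold change -1.03, SE 0.06, adjusted p = 3.38e-16).

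Writers of active marks were divided. Trithorax and COMPASS genes, which methylate lysine 4 of histone H3, rose in 9 of 20 cases and fell in 3 (median 0.11), with KMT2C up by 0.46, KMT2A by 0.26 and NCOA6 by 0.38. Acetyltransferases and their scaffolds, which oppose deacetylases, fell in 15 of 40 cases and rose in 7 (median -0.05). BRPF3 lay at 61.5, 62.96 and 61.6 CPM in the controls and 38.98, 37.6 and 40.3 CPM after knockdown (log2 fold change -0.67, SE 0.06, adjusted p = 7.95e-12), KAT6A fell by 0.37, and EP300 rose by 0.20. Polycomb genes gave 9 rises and 9 falls of 33: CBX2 (0.28) and JARID2 (0.40) rose, and RYBP lay at 81.6, 86.1 and 91.96 CPM in the controls and 49.3, 42.9 and 48.7 CPM after knockdown (log2 fold change -0.88, SE 0.06, adjusted p = 8.42e-15). BAF and PBAF remodellers gave 8 rises and 8 falls of 28, with SMARCD2 up by 0.33 and PHF10, a PBAF subunit, down at a log2 fold change of -0.48.

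Many genes of protein synthesis fell by small steps. Of 211 tested, 94 fell, 40 rose and 77 did not pass, with a median of -0.06. Proteins of the large ribosomal subunit fell in 34 of 47 cases and rose in 1 (median -0.12), and those of the small subunit fell in 19 of 32 and rose in 1 (median -0.09). RPL10 lay at 1237, 1239 and 1198 CPM in the controls and 993, 1032 and 1033 CPM after knockdown (log2 fold change -0.27, SE 0.03, adjusted p = 8.56e-11), and RPS25 fell by 0.22 on the log2 scale. RPLP0, of the ribosomal stalk, was the large-subunit gene that rose, at 853, 853 and 820.2 CPM in the controls and 1014, 1003 and 967 CPM after knockdown (log2 fold change 0.24, SE 0.03, adjusted p = 2.33e-09). Initiation and elongation factors fell in 17 of 44 cases and rose in 8, with EIF4H down at 319, 334 and 328 CPM in the controls and 240.2, 245 and 254 CPM after knockdown (log2 fold change -0.41, SE 0.03, adjusted p = 3.83e-13) and EIF2B2 up by 0.30.

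Genes that build ribosomes did not follow the ribosomal proteins. Of 65 genes of ribosome biogenesis and RNA polymerase I, 22 rose, 15 fell and 28 did not pass (median 0.05). IMP3, of the small-subunit processome, lay at 79.1, 87.96 and 81.8 CPM in the controls and 113, 112 and 101 CPM after knockdown (log2 fold change 0.39, SE 0.05, adjusted p = 5.7e-08), and EBNA1BP2 (0.33) and NOLC1 (0.22) rose. RRN3, which brings RNA polymerase I to its promoters and has pseudogenes, fell and lay at 99.5, 102 and 106 CPM in the controls and 53.4, 57.98 and 61.5 CPM after knockdown (log2 fold change -0.83, SE 0.05, adjusted p = 3.83e-16). The 23 cytosolic tRNA synthetases and their partners were split, with 8 rises and 9 falls. Many ribosomal protein genes have pseudogenes that can share their reads, and the steps are small: under upper-quartile scaling the median of all genes was -0.05.

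Mitochondrial genes leaned down as well, 55 falls and 20 rises of 200 (median -0.04), with most (125) not past the threshold. Mitochondrial ribosomal proteins fell in 27 of 78 cases and rose in 9 (median -0.08), among them MRPL54 (-0.42) and MRPS5 (-0.30) as falls and MRPL30 (0.30) as a rise. Of the 13 messenger RNAs of the mitochondrial genome, 6 fell and 7 did not pass, with MT-ND2 down at a log2 fold change of -0.24. Their median relative to the controls was -0.06, -0.10 and -0.11 with the SUDS3 siRNA. The controls lay at 0.10, -0.03 and -0.07, so the groups overlapped. The fall of MT-ATP6 was lost without SUDS3 siRNA replicate 3 (adjusted p = 0.0559) and that of MT-CO2 with limma on log2(TPM + 1) (0.0678). COX7B (ENSG00000131174, chromosome X, 77899438 to 77907373), a small subunit of cytochrome oxidase, had the largest fall of the list of complexes II to V and has a pseudogene; it lay at 204, 207 and 201 CPM in the controls and 113, 105 and 107 CPM after knockdown (log2 fold change -0.91, SE 0.04, adjusted p = 1e-20). NDUFA12 of complex I fell by 0.44, whereas NDUFA2 of the same complex rose and lay at 48.4, 45.5 and 46.98 CPM in the controls and 66.9, 62.6 and 67.4 CPM after knockdown (log2 fold change 0.48, SE 0.05, adjusted p = 2.93e-09).

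In protein folding and turnover 39 of 159 genes rose and 52 fell. The chaperonin TRiC and its partner prefoldin, which fold actin and tubulin, fell in 9 of 15 cases and rose in 3 (median -0.14). VBP1, a prefoldin subunit, lay at 221, 227 and 235 CPM in the controls and 155, 141 and 161 CPM after knockdown (log2 fold change -0.58, SE 0.04, adjusted p = 2.86e-14), and CCT4 (-0.26) and CCT3 (-0.23) fell. Proteasome subunits were near even, with 6 rises and 7 falls of 33. Ubiquitin-conjugating enzymes gave 8 rises and 13 falls of 33: UBE2W lay at 39.6, 35.4 and 39.2 CPM in the controls and 17.3, 18.5 and 18.8 CPM after knockdown (log2 fold change -1.06, SE 0.07, adjusted p = 5.85e-15) and UBE2D1 at 24.3, 22.2 and 25.8 CPM in the controls and 40.6, 36.3 and 37.3 CPM after knockdown (log2 fold change 0.66, SE 0.07, adjusted p = 4.25e-09). In the SUMO pathway 7 of 18 rose, with the SUMO-targeted ligase RNF4 up by 0.44, and 4 fell, with SUMO3 at 175, 188 and 176 CPM in the controls and 55.1, 55.3 and 56.7 CPM after knockdown (log2 fold change -1.69, SE 0.04, adjusted p = 1.38e-27). Endoplasmic reticulum chaperones gave 9 rises and 11 falls of 33. PDIA3 lay at 545, 540.5 and 562 CPM in the controls and 398, 390.3 and 426 CPM after knockdown (log2 fold change -0.44, SE 0.03, adjusted p = 6.22e-14), and EDEM1 rose by 0.22.

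Among genes of RNA processing the SR proteins and hnRNPs, abundant regulators of splicing, fell in 23 of 34 cases and rose in 3 (median -0.14). Their median relative to the controls was -0.15, -0.17 and -0.12 in the 3 SUDS3 siRNA libraries. HNRNPH2 (ENSG00000126945, chromosome X, 101408295 to 101414133) lay at 162, 167 and 174 CPM in the controls and 115, 112 and 107 CPM after knockdown (log2 fold change -0.59, SE 0.04, adjusted p = 9.23e-15). HNRNPA2B1 had one of the 5 largest losses of mean CPM, from 2549.7, 2559 and 2594 CPM to 1995, 2037 and 2080.5 CPM (log2 fold change -0.33, adjusted p = 2.53e-14). SYNCRIP rose by 0.24. Core spliceosome proteins gave 9 rises and 15 falls of 50, with SNRPG, which has pseudogenes, at 115, 114 and 116 CPM in the controls and 67.05, 67.9 and 69.9 CPM after knockdown (log2 fold change -0.75, SE 0.04, adjusted p = 6.76e-17) and PRPF4 up by 0.33. Nuclear pore and transport genes gave 16 rises and 20 falls of 54, with KPNA3 (0.46) up and KPNB1 (-0.32) and TNPO1 (-0.47) down. In the machinery of small RNAs, on which an siRNA itself depends, 8 of 24 rose and 10 fell: AGO1 rose by 0.43, and CNOT6, of the deadenylase complex, lay at 147, 154 and 163 CPM in the controls and 100.1, 98.02 and 98.3 CPM after knockdown (log2 fold change -0.65, SE 0.04, adjusted p = 9.61e-15).

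Metabolic genes differed by pathway. Serine, glycine and one-carbon metabolism, which supplies carbon for nucleotides, fell in 14 of 24 cases and rose in 3 (median -0.12), and purine and pyrimidine synthesis fell in 15 of 29 and rose in 4 (median -0.19). ATIC, which makes the last steps to IMP, lay at 243, 254 and 254 CPM in the controls and 187, 185 and 183 CPM after knockdown (log2 fold change -0.44, SE 0.03, adjusted p = 2.51e-13). PSAT1 (-0.27), MTHFD2 (-0.27) and TYMS (-0.27) fell by similar steps, and GLDC, which splits glycine, rose and lay at 41.6, 39.3 and 38.01 CPM in the controls and 53.5, 59.1 and 57.8 CPM after knockdown (log2 fold change 0.52, SE 0.06, adjusted p = 1.26e-08). For the purine and pyrimidine list, 6 of the 17 members without the hexamer fell, with a median of -0.07.

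Glycolysis and cholesterol synthesis leaned up, each with 11 rises of 25, against 8 and 6 falls. LSS, which closes the sterol ring, had a mean of 93.2 ± 5.96 CPM in the controls and 144 ± 7.50 CPM after knockdown (SD, n = 3; log2 fold change 0.63, SE 0.05, adjusted p = 1e-12), and SQLE rose by 0.33. The cholesterol carrier STARD4 fell by 0.64. The glucose transporters SLC2A1 (0.36) and SLC2A3 (0.44) rose, and LDHA fell by 0.22. In glutathione and oxidative stress genes 7 rose and 9 fell of 26. The cystine importer SLC7A11 lay at 49.1, 58.8 and 55.4 CPM in the controls and 24.5, 23.7 and 26.8 CPM after knockdown (log2 fold change -1.12, SE 0.07, adjusted p = 1.42e-15), whereas PRDX1, a peroxiredoxin with pseudogenes, had the largest gain in mean level of any gene that passed and lay at 447, 451 and 455 CPM in the controls and 727, 734 and 740.4 CPM after knockdown (log2 fold change 0.70, SE 0.03, adjusted p = 9.15e-22). The tricarboxylic acid cycle mostly did not pass, with 4 rises and 6 falls of 28.

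Cell cycle genes were split, with 43 rises and 49 falls of 162. Genes of DNA replication and entry into S phase fell in 17 of 47 cases and rose in 8 (median -0.05), and genes of mitosis gave 9 rises and 9 falls of 44. CDC7, a kinase that fires replication origins, lay at 175, 187 and 188 CPM in the controls and 112, 123 and 125 CPM after knockdown (log2 fold change -0.61, SE 0.04, adjusted p = 4.94e-15), and CCNE2, a cyclin of S-phase entry, at 51.6, 47.3 and 55.9 CPM in the controls and 29.1, 30.2 and 31.7 CPM after knockdown (log2 fold change -0.77, SE 0.07, adjusted p = 1.97e-11). Of 31 regulators of cyclin-dependent kinases, 11 rose and 9 fell, with the inhibitors CDKN2C and CDKN1B up by 0.50 and 0.46. E2F5, a repressor of the E2F family, had one of the 20 largest falls and lay at 62.9, 62.01 and 70.8 CPM in the controls and 22.1, 20.4 and 24.6 CPM after knockdown (log2 fold change -1.55, SE 0.07, adjusted p = 2.52e-19). Targets of p53 and regulators of apoptosis gave 15 rises and 15 falls of 41. HEK293T cells carry large T antigen, which binds p53. The antiproliferative gene BTG2 lay at 32.8, 37.7 and 33.6 CPM in the controls and 62.9, 64.4 and 63.5 CPM after knockdown (log2 fold change 0.87, SE 0.06, adjusted p = 1.49e-14) and FDXR rose by 0.94, whereas PMAIP1, the BH3 protein NOXA, fell by 0.76.

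Signalling genes leaned down, with 46 rises and 69 falls of 244 (median -0.12). Genes of the TGF-beta, activin and BMP pathways fell in 15 of 39 cases and rose in 5, with a median of -0.28. Besides the receptor TGFBR1, the activin receptors ACVR1B (-0.77) and ACVR2B (-0.66) fell, and SKI, which represses SMAD targets, rose by 0.46. Of the 16 members without the hexamer, 1 fell and 3 rose, with a median of -0.09, and 14 of the 15 falls lay among the members that hold it. TGFBR1 lay at 62.6, 62.9 and 67.3 CPM in the controls and 19.6, 17.9 and 20.1 CPM after knockdown (log2 fold change -1.74, SE 0.06, adjusted p = 7.68e-22).

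The Notch pathway gave 12 rises and 7 falls of 39, with MAML1 (0.37) and NUMB (0.34) up and the target HEY1 down at 263, 256 and 264 CPM in the controls and 172, 167 and 176 CPM after knockdown (log2 fold change -0.61, SE 0.03, adjusted p = 2.8e-17). The Wnt pathway was even, with 10 rises and 10 falls of 46: the receptor FZD5 lay at 21.1, 20.5 and 22.3 CPM in the controls and 34.9, 31.9 and 32.95 CPM after knockdown (log2 fold change 0.64, SE 0.08, adjusted p = 4.54e-08), and LGR5, a receptor for R-spondins, at 8.32, 8.82 and 7.50 CPM in the controls and 2.66, 3.003 and 3.14 CPM after knockdown (log2 fold change -1.49, SE 0.15, adjusted p = 7.97e-10). Immediate early genes fell in 10 of 34 cases and rose in 4. JUN (ENSG00000177606, chromosome 1, 58780788 to 58784327) lay at 391, 411 and 425 CPM in the controls and 239, 237 and 248 CPM after knockdown (log2 fold change -0.76, SE 0.03, adjusted p = 2.95e-20), with all SUDS3 siRNA libraries below the controls. Genes of the interferon response, which double-stranded RNA can raise, gave 6 rises and 7 falls of 30, and its RNA-activated kinase EIF2AK2 fell by 0.36. Integrins, collagens and laminins fell in 20 of 56 cases and rose in 9 (median -0.23): COL2A1 lay at 80.9, 75.1 and 70.5 CPM in the controls and 39.3, 40.5 and 38.3 CPM after knockdown (log2 fold change -0.94, SE 0.05, adjusted p = 2.35e-16) and the integrin ITGA6 at 31.9, 29.8 and 29.2 CPM in the controls and 47.1, 52.1 and 48.2 CPM after knockdown (log2 fold change 0.70, SE 0.07, adjusted p = 1.5e-10).

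The themes above were also read in the direct contrast with the PHF12 siRNA, where 22.7% of all genes were higher and 21.1% lower with the SUDS3 siRNA. A difference there can come from a change with either siRNA. Of the 170 lysosome genes, 79 were higher and 27 lower, and of the 118 traffic genes 47 were higher and 22 lower. CTNS differed by 0.65 (adjusted p = 2.78e-10) on the log2 scale, whereas for CTSA, at 112, 103 and 109 CPM with the PHF12 siRNA, no difference was called (-0.00, SE 0.05, adjusted p = 0.983). Of the 211 genes of protein synthesis, 115 were lower and 45 higher than with the PHF12 siRNA. Their median log2 difference was -0.13 here and -0.06 from the control siRNA. Genes of RNA processing gave 87 lower and 29 higher, chromatin genes 70 and 34, the cell cycle 58 and 49, and folding and turnover 53 and 49. Some groups that leaned down against the control siRNA did not do so here. Mitochondrial genes were near even, with 51 higher and 53 lower, and their ribosomal proteins were higher in 28 cases and lower in 17. Metabolic genes were higher in 63 cases and lower in 39, one-carbon metabolism in 11 and 5, and purine and pyrimidine synthesis in 10 each. Signalling genes gave 68 in each direction. The log2 difference was -0.66 for MBD3 (adjusted p = 1.89e-14) and -0.94 for COL2A1 (adjusted p = 6.69e-17).

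Beyond the lists, gene families cut from the symbol alone showed a few uneven shares. F-box genes, the substrate receptors of SCF ubiquitin ligases, rose in 24 of 57 cases and fell in 5 (median 0.19). FBXO33 lay at 19.7, 22.6 and 22.5 CPM in the controls and 45.04, 41.9 and 40.3 CPM after knockdown (log2 fold change 0.97, SE 0.08, adjusted p = 1.56e-12), FBXW7 rose by 0.49, and FBXL17 fell by 1.26. TRIM genes fell in 17 of 45 cases and rose in 8, with TRIM23 at 30.3, 32.95 and 32.5 CPM in the controls and 13.3, 12.3 and 12.2 CPM after knockdown (log2 fold change -1.34, SE 0.08, adjusted p = 4.48e-16). Collagens fell in 12 of 34 cases and rose in 4 (median -0.45). Of 30 histone genes, whose messenger RNAs mostly lack a poly-A tail and are poorly held by these poly-A libraries, 7 fell and 23 did not pass (median -0.44), with HIST1H1C down at a log2 fold change of -0.55. The share of histone genes that fell, 23.3%, was near the 22.9% of all protein-coding genes. Zinc finger genes of the ZNF name also fell near that share, in 107 of 439 cases (24.4%). They rose in 48 (10.9%), against 24.7% of all protein-coding genes. Those on chromosome 19, where they form clusters, fell in 45 of 202 (22.3%) and rose in 13 (6.44%). Solute carriers were even, at 73 rises and 73 falls of 264. The families and the genes named for them were chosen after their values were seen.

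The share called differed with gene type and level. Of 2628 long noncoding transcripts, 71 rose (2.70%) and 216 fell (8.22%), and of 1217 pseudogenes 30 rose and 50 fell. AC091182.1 had one of the larger noncoding falls and lay at 13.2, 13.6 and 11.7 CPM in the controls and 5.41, 4.50 and 5.002 CPM after knockdown (log2 fold change -1.37, SE 0.11, adjusted p = 1.04e-12), and the PHF12 siRNA libraries held 26.9, 24.04 and 24.2 CPM, above all controls (log2 difference of SUDS3 from PHF12 siRNA -2.33, adjusted p = 8.31e-20). AC100814.1 (-1.61) and LINC01976 (-1.27) fell, and CIRBP-AS1, antisense to a cold-induced RNA-binding protein, rose by 0.87. Among protein-coding genes split into quartiles of mean level, the lowest quartile held 47 of the 66 rises and 193 of the 283 falls of at least 2-fold, and the highest quartile 1 and 15. In the lowest quartile 4.87% rose and 14.4% fell, in the highest 33.9% and 29.6%. By chromosome, over genes of all types, 24.5% of genes on chromosome 16 rose and 12.7% fell, and on chromosome 18 the shares were 9.85% and 22.6%. Over all genes tested they were 19.6% and 19.2%. Chromosome 16 had the highest share of rises and chromosome 18 the lowest of the nuclear chromosomes read. These shares were not matched for gene type or level.

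The protein-coding genes ranked 11 to 20 by fold change were mixed in function. Among the rises, HECTD3 (ENSG00000126107, chromosome 1, 45002540 to 45011329), a ubiquitin ligase, lay at 47.3, 41.6 and 44.9 CPM in the controls and 97.9, 96.4 and 98.3 CPM after knockdown (log2 fold change 1.13, SE 0.05, adjusted p = 4.44e-19), and GLTP, a glycolipid transfer protein, at 25.8, 25.3 and 26.3 CPM in the controls and 59.1, 53.97 and 54.1 CPM after knockdown (log2 fold change 1.11, SE 0.06, adjusted p = 1.06e-16). AP3B2 (1.23), TMEM198 (1.20), BBOF1 (1.17), C9orf116 (1.12) and TMEM145 (1.12) were others. Among the falls, TPD52 lay at 66.4, 71.7 and 71.6 CPM in the controls and 24.4, 21.3 and 23.5 CPM after knockdown (log2 fold change -1.60, SE 0.07, adjusted p = 1.76e-20), and ATF1, a transcription factor of the cyclic AMP response, at 34.3, 36.8 and 38.5 CPM in the controls and 13.02, 12.3 and 13.4 CPM after knockdown (log2 fold change -1.50, SE 0.08, adjusted p = 5.21e-18). PKIA, an inhibitor of protein kinase A (-1.63), the bicarbonate transporter SLC4A4 (-1.65) and DTD2 (-1.62) fell as far. All 10 of these falls hold the hexamer TACATT in their longest annotated 3′ UTR, against 1 of the 10 rises, BBOF1.

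That hexamer had been picked from these same fold changes in an earlier scan, so its link with the falls is a description and not a test. An siRNA can lower transcripts other than its target through short matches to its seed in their 3′ UTR. The sequence of this siRNA was not used here, so whether TACATT matches its seed was not tested. Of 13847 protein-coding genes with an annotated 3′ UTR, 42.0% hold TACATT. The share was 53.4% of those that fell at least 2-fold, 56.2% of the smaller falls, 39.3% of those that did not pass, 34.9% of the smaller rises and 25.8% of those that rose at least 2-fold. Genes with it fell in 30.5% of cases and rose in 20.5%, and genes without it fell in 17.4% and rose in 27.8%.

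A long 3′ UTR is more likely to hold any hexamer, so the shares were also read by length. In the shortest quartile of 3′ UTRs 28.6% of the genes with the hexamer fell against 17.9% of those without it, and in the longest quartile 31.6% against 16.4%. Rises among genes without the hexamer went from 21.0% in the shortest to 36.1% in the longest quartile. For the lysosome lists the members without the hexamer kept the direction of the whole, with a median of 0.27 for autophagy and 0.20 for V1, as did -0.17 for NuRD and -0.15 for SR proteins and hnRNPs.

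**Figure D4:**
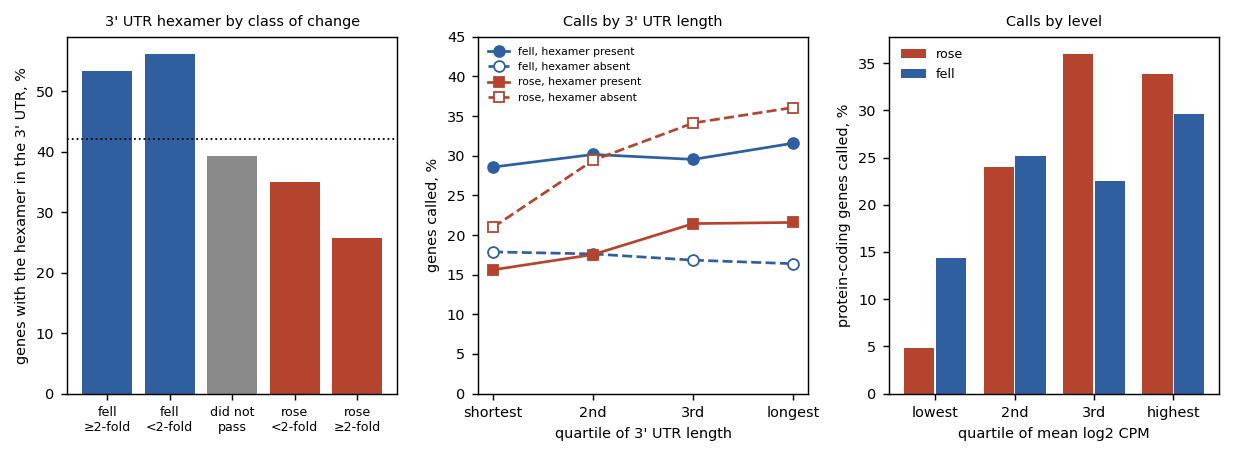
Left, percent of protein-coding genes whose 3′ UTR holds the hexamer, by class of change (dotted line, 42.0% of all); middle, percent of genes that fell or rose, with and without the hexamer, by quartile of 3′ UTR length; right, percent of genes that rose or fell by quartile of mean level. In every quartile of length more genes fell, and fewer rose, with the hexamer than without it.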

How the data were processed

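Polyadenylated RNA of 9 HEK293T libraries was sequenced from stranded TruSeq libraries, per the labels' protocols. Reads were handled with Trimmomatic 0.36, HISAT2 2.1.0 and HTSeq on GRCh38, per the submitters' processing notes. The use of strand in counting was not given in the sources used here. Counts of 58735 genes, as deposited, were taken as raw. Of the counts above 0, 96.1% are multiples of 4, so precision is below what the totals imply, and 1 alternative divides the counts by 4. The TPM table the authors deposited implies transcript lengths unrelated to the genes' own (log correlation -0.00 over 11338 genes), so TPM served only within a gene, in a limma alternative, and levels per length were computed from the counts and the longest GENCODE 29 transcript.

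Groups came from the labels. Genes were filtered with filterByExpr (minimum count 10), scaled by TMM and fitted over all 9 libraries with the robust quasi-likelihood model of edgeR 4.0.16 (R 4.3.3), tested by its F-test, with Benjamini-Hochberg adjustment over 18088 genes and a threshold of 0.05. The SE is the log2 fold change over the square root of F. The fit was tested on simulated data, in which counts were not held to multiples of 4. It called 35 of 49 genes set to rise 2-fold and 30 of 49 set to fall 2-fold. It called 22 of 50 set to rise 1.25-fold, 29 of 47 set to fall to 0.8 and 2 of 17445 left unchanged. Alternatives were RLE and upper-quartile scaling, DESeq2 1.42.0, other filters, the 6 libraries alone, a replicate block, limma 3.58.1 on log2(TPM + 1), each library left out, and lists without overlapping members or members with the hexamer. Named genes are SUDS3, PHF12, in each of the 68 lists the 3 members with the smallest p in the direction with more calls and 1 in the other, protein-coding ranks 11 to 20 each way, the 5 largest noncoding rises and falls, the 5 largest gains and losses of mean CPM, and HOX and V-ATPase genes that passed, and not all of them are printed. The members, the lists and the hexamer were chosen with earlier results of these data known.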

Additional observations from a re-analysis of the deposited data

How the results depend on the processing

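Across RLE and upper-quartile scaling, DESeq2, other filters, counts divided by 4, the 6 libraries alone and limma on log2(TPM + 1), 3064 to 3701 genes rose and 2821 to 3873 fell. Rises made up 50.5% of the calls in the edgeR fit, 44.2% with upper-quartile scaling and 54.8% with limma, which called 25 rises and 86 falls of at least 2-fold on its compressed scale. With each library left out in turn, 3075 to 3267 genes rose, 2981 to 3145 fell, 87 to 119 rose at least 2-fold and 331 to 411 fell as far. With the replicate block 3587 rose and 3486 fell. Same-numbered libraries deviated together weakly (correlations 0.07, -0.01 and 0.20), so the numbers were not taken as pairs.

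Of 68 list medians, 21 changed sign in at least 1 alternative with 5 or more members left, all of them lists with medians no further from 0 than 0.13. Members with the hexamer left out turned 9, the furthest being calcium channels (0.18), neuronal RNA-binding regulators (0.15), neurogenic factors (0.13) and ubiquitin-conjugating enzymes (0.11), with acetyltransferases (0.0048), mitochondrial import (0.00033) and small RNA machinery (0.011) among them. Overlapping members left out turned 8 of the 64 lists read, among them calcium channels (0.060), HSP90 and HSP70 machinery (0.011) and p53 targets (-0.07). The HOX clusters were not read there, since each kept only 1 or 2 members. On those members HOXB stood at 0.26 (-0.55 in the whole list) and HOXD at 0.11 (-0.37), while HOXA (-0.77) and HOXC (-0.44) stayed below 0. Upper-quartile scaling turned 7 medians from at most 0.02 to between -0.03 and -0.01, RLE scaling and DESeq2 2 each, and limma 6, complexes II to V (0.0034) included. The causes were not tested. Leaving SECISBP2L out of the granule list (median 0.21) was chosen after seeing the data. Since nearly all low counts are multiples of 4, few fragments lie behind genes of a few CPM, and small changes of such genes were not detectable.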
